A study of Mus musculus with 46 samples.

Results

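A set of 100 genes was followed that were below 1 FPKM (fragments scaled to gene length and to library size) in mouse embryonic fibroblasts and in mouse embryonic stem cells (mES), yet well expressed late in reprogramming driven by an engineered Nanog. Of 37108 genes in the gene table, 22165 were under 1 FPKM in both fibroblast (MEF) libraries and in the mES library. The 100 of these with the highest minimum over 4 libraries, D10 and D12 of the engineered combination, were taken, so the members were chosen by measured values. The minimum over those 4 libraries ranged from 48.4 FPKM for Insm1 to 3.69 for Pou2f2. Just inside the limit lay Rgs8 at 3.77, D930028M14Rik at 3.76 and Pou2f2 at 3.69, and just outside it Slco5a1 at 3.60, Srrm4 at 3.59 and Cartpt at 3.54. The 100 symbols stand for 97 genes, because H2bu2 and Hist3h2ba, Tmem35 and Tmem35a, and Minar2 and A730017C20Rik name the same gene, and counts below are of the 97. The D10 and D12 values of the engineered combination and the MEF and mES values chose the genes, so these values are given as a description without a test.

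The cells were MEFs from embryonic day 13.5, bred per the study's methods from OG2 males, which carry an Oct4-GFP reporter, and females of another, wild-type strain, and the mES were OG2 as well. Every time-course culture received retroviral Oct4, together with either native Nanog (NanogWT) or Nanog with a piece of SS18 at its N terminus that binds BRG1, the ATPase of the BAF chromatin remodelling complex (NanogBiD, called NanogN70 in the labels). Libraries were made at 8 time points, from D0, taken after infection, to D12. Each combination had 2 per day except NanogBiD at D8 with 1, which made 31. The medium was changed after 7 days from iCD3 to N2B27 with LIF and inhibitors of GSK3 and MEK. Established induced pluripotent stem cells (iPSC) numbered 12, with 6 per combination from lines named iPSC1 and iPSC2, beside 2 MEF libraries and 1 mES library. Of the NanogWT samples, 1# and 1#-2 share a number and may be 1 clone, although their column headers carry different p marks, read here as passage. In both combinations every iPSC1 sample carries a later passage than any iPSC2 sample. Line and passage therefore cannot be told apart. Nothing in the labels says that replicates came from separate cultures, so p-values measure the spread between these samples, which may be technical. In such bulk samples, fewer cells of a type and less RNA per cell cannot be told apart.

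Many of the genes belong to the making of neurons. In the developing nervous system, proneural transcription factors of the basic helix-loop-helix family, such as the neurogenins, raise the Notch ligand Dll1 in cells that will differentiate, while Notch signalling in their neighbours keeps Hes5 on and holds them as progenitors. Insm1, Scrt1, Scrt2, Nhlh1 and Nhlh2 follow as cells leave the progenitor state, and RNA-binding proteins such as Elavl3 and microtubule proteins such as Dcx mark young neurons. Of 32 genes on a list of neural and neuronal genes, 20 were under 1 FPKM in MEF and mES, and 11 of those 20 (55.0%) were members, among them Pax3, Pax6, Olig3, Neurog1, Neurog2, Dcx, Elavl3, Elavl4, Pou3f2 and Syp. Members made up 0.451% of all genes under the limit, most of which were not expressed late. Only 496 of the 22165 were at or over 1 FPKM in all 4 choosing libraries, and 15 of the 20 neural genes were. The rule itself used these values and the lists were chosen with earlier results known, so the shares are a description. Among 20 further lists, Rhox6 was on the trophoblast list, Tfap2b on the neural crest and glia list and Sst on the gut, liver and pancreas list, and no other list held a member.

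Regions before start sites are shown for 2 of the 3 members with the octamer motif ATGCAAAT and for the helix-loop-helix member Nhlh1. The octamer is the sequence that POU factors such as Oct4 bind. With NanogBiD each gene shown had its onset at D8 and its highest mean at D10. Whether their levels moved together was not tested. Of the 97 genes, 73 had an entry among the RefSeq promoters of GRCm38.p6, the build that mm10 names, with 101 start sites in all. The 250 bases before each start were searched on both strands for the octamer, for the E-boxes CAGCTG and CAGATG and for the SOX-like motif ACAATG. The octamer stood before Dll1, Neurog1 and Pcdh8. The windows of Dll1, Hes5, Nhlh2, Neurog2 and Olig3 overlap protein-coding genes or exons and are not printed. Those printed overlap no protein-coding exon, and capitals mark the octamer (ATGCAAAT or, on the other strand, ATTTGCAT), ACAATG read as CATTGT, and CAGATG. The first is Neurog1, chr13:56252181-56252430, minus strand, a proneural factor.
Neurog1: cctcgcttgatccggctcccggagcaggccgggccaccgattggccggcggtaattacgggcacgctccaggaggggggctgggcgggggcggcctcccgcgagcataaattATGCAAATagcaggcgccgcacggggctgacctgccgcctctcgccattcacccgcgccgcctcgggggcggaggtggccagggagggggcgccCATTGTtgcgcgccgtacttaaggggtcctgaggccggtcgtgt
The second is Pcdh8, chr14:79771313-79771562, minus strand, a protocadherin of cell adhesion, whose window lies within the span of Gm9748.
Pcdh8: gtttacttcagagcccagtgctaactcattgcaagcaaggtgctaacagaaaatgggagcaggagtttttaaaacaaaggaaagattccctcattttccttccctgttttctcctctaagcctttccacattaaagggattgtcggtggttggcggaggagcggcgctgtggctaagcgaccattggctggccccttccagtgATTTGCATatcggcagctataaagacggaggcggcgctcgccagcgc
The third is Nhlh1, chr1:172057597-172057846, minus strand, a helix-loop-helix factor of young neurons.
Nhlh1: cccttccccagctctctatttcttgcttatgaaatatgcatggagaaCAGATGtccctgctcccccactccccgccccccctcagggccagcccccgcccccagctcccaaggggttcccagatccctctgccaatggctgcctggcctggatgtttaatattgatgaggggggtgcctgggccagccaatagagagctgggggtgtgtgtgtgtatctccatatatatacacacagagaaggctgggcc
The octamer began 138 bases before the start of Neurog1 and 47 bases before that of Pcdh8, and the E-box began 203 bases before that of Nhlh1. Over the 101 member windows the octamer was found in 2.97%, against 1.60% of all 32851 windows. CAGCTG was found in 16.8% against 13%, CAGATG in 16.8% against 14.4%, and ACAATG in 9.90% against 10.7%. The median ratio of observed to expected CpG was 0.564 in the member windows. It was 0.690 in the 15162 windows of genes tested in the time course and 0.374 in all 32851 windows. These are descriptions of letters in a window.

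All 31 time-course libraries had similar totals, 370030 to 462190 FPKM. Relative depth, read from the step that 1 fragment makes in low values, was 0.807 to 1.08 in the 15 NanogBiD libraries, 0.871 to 1.05 in the 10 NanogWT libraries of D0 to D7 and 1.54 to 3.16 in the 6 NanogWT libraries of D8 to D12, so that depth and combination cannot be told apart from D8 on. The defining markers followed the labels: the 14 fibroblast genes were all at or over 1 FPKM in MEF and summed to 6100 and 7027 FPKM there, and all 24 naive pluripotency genes were at or over 1 FPKM in mES. At D12 the fibroblast list still summed to 3074 and 3529 FPKM with NanogWT and to 310 and 454 FPKM with NanogBiD.

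Absence from MEF and mES was a matter of degree. Only 7 of the 97 genes were listed at 0 in all 3 of those libraries, 42 reached 0.5 FPKM in at least 1, and the highest value was 0.999 FPKM for Sparcl1 in MEF. The median gene was at 0.0829 FPKM in MEF and at 0.232 in mES. Nor were all genes late. Onset was taken as the first day on which every replicate was at or over 1 FPKM and stayed there on all later days. With NanogBiD 8 genes had their onset at D0, 10 at D1, 12 at D3, 9 at D5, 5 at D7, 46 at D8 and 7 at D10, and the D8 value rests on 1 library. With NanogWT 8 had it at D0, 9 at D1, 9 at D3, 2 at D5, none at D7, 10 at D8, 24 at D10 and 29 at D12, while Olig3, Rhox6, Fndc5, Chrnb4, D930028M14Rik and Pou2f2 did not reach it by D12. Onset was later with NanogWT for 62 genes, on the same day for 25 and earlier for Tox3, Spock1, Efr3b and Cspg5. The choice put every member over 1 FPKM in all NanogBiD libraries of D10 and D12. A NanogBiD onset after D10 was therefore not possible, while NanogWT had no such limit. At D8 only 1 NanogBiD library had to pass, against 2 with NanogWT. The order of onsets is thus a description.

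**Figure D1:**
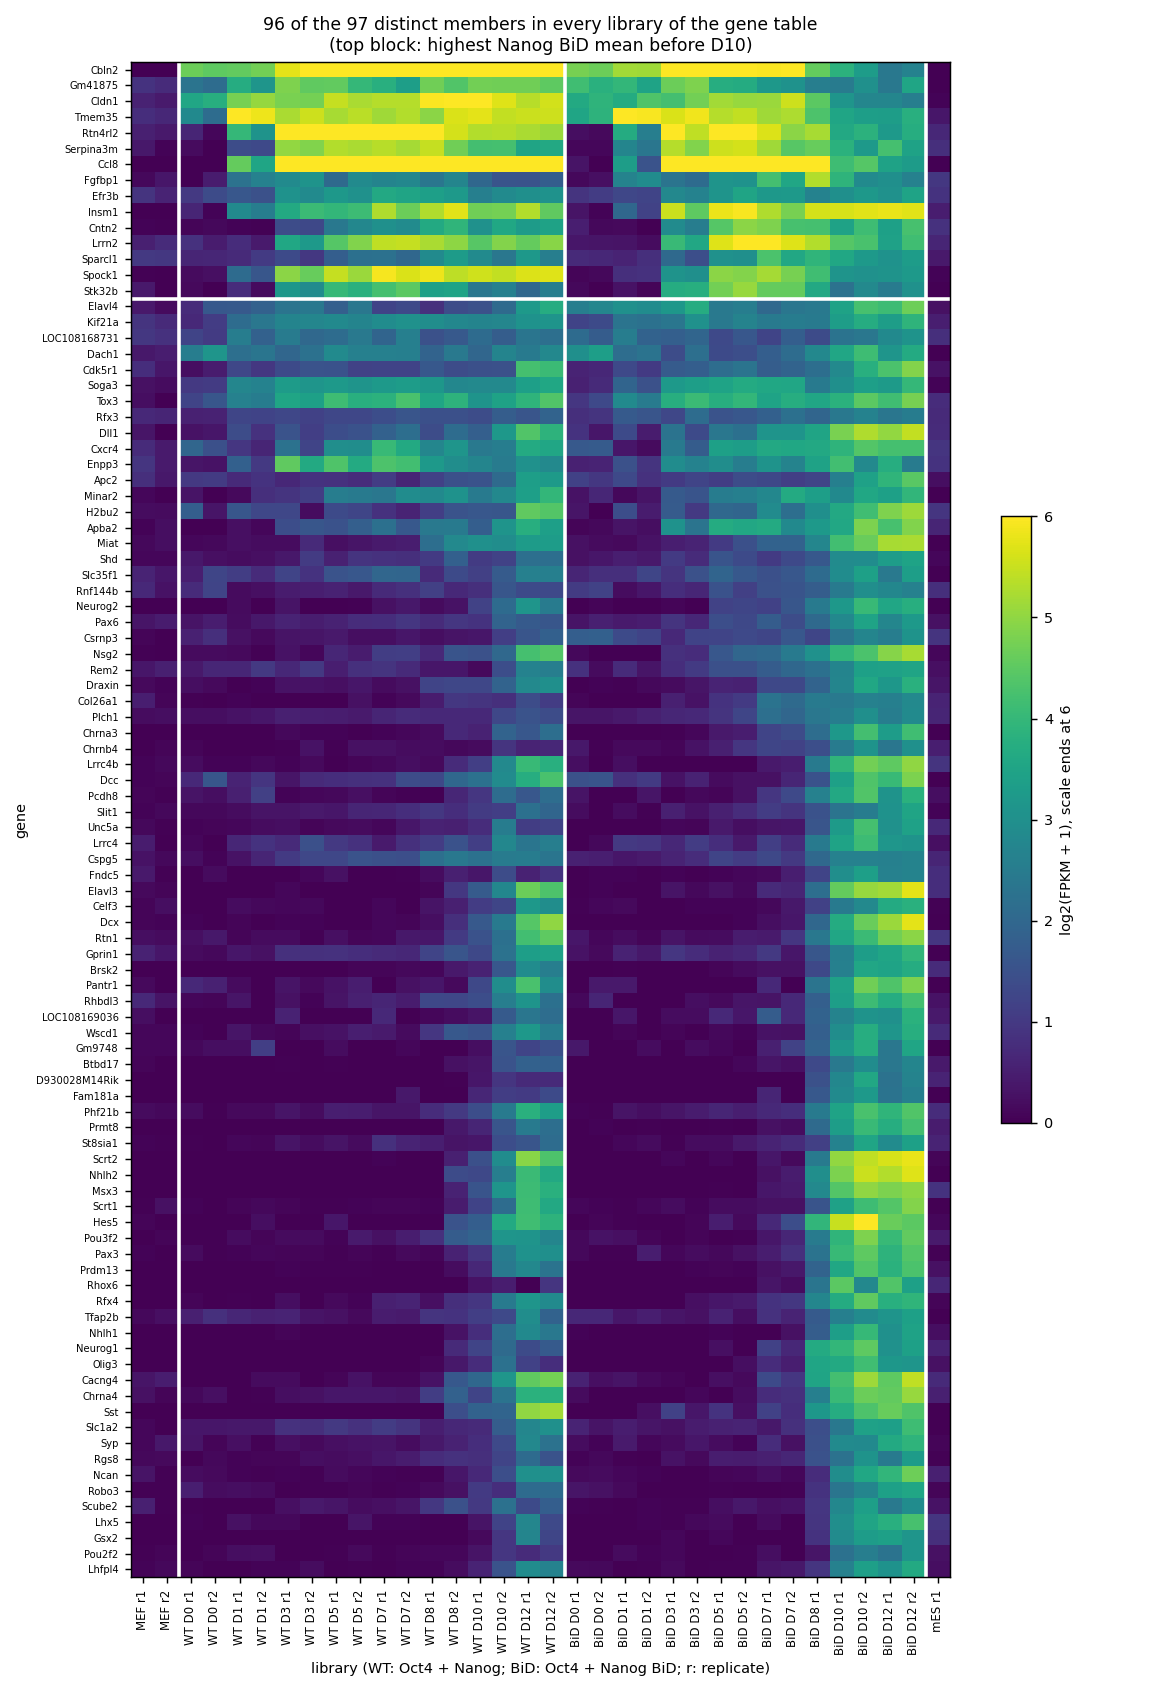
The levels of 96 of the 97 genes (rows) in the 34 libraries of the gene table (columns), coloured by log2(FPKM + 1); WT is Oct4 with NanogWT, BiD is Oct4 with NanogBiD. The upper block holds the 15 genes with their highest NanogBiD mean before D10 and the lower block 81 genes with it at D10 or D12, and the MEF and mES columns at the edges are dark throughout.

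By the day of the highest NanogBiD mean, 82 genes peaked at D10 or D12 and 15 before it. For the 82, the median level with NanogBiD was 0.702 FPKM at D7, 3.22 a day later, 11.1 at D10 and 12.0 at D12. With NanogWT the same 4 medians were 0.226, 0.641, 2.31 and 5.84 FPKM. For the 15 others the median with NanogBiD was 33.7 FPKM at D5, 21.5 at D8 and 8.75 at D12. With NanogWT it was 24.4, 34.2 and 26.0 on those days. The split was made on the NanogBiD values, so the late or earlier peak of either group with NanogBiD follows from it. The 15 were Insm1, Lrrn2, Cntn2, Tmem35, Ccl8, Serpina3m, Rtn4rl2, Sparcl1, Spock1, Efr3b, Fgfbp1, Cldn1, Cbln2, Gm41875 and Stk32b.

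**Figure D2:**
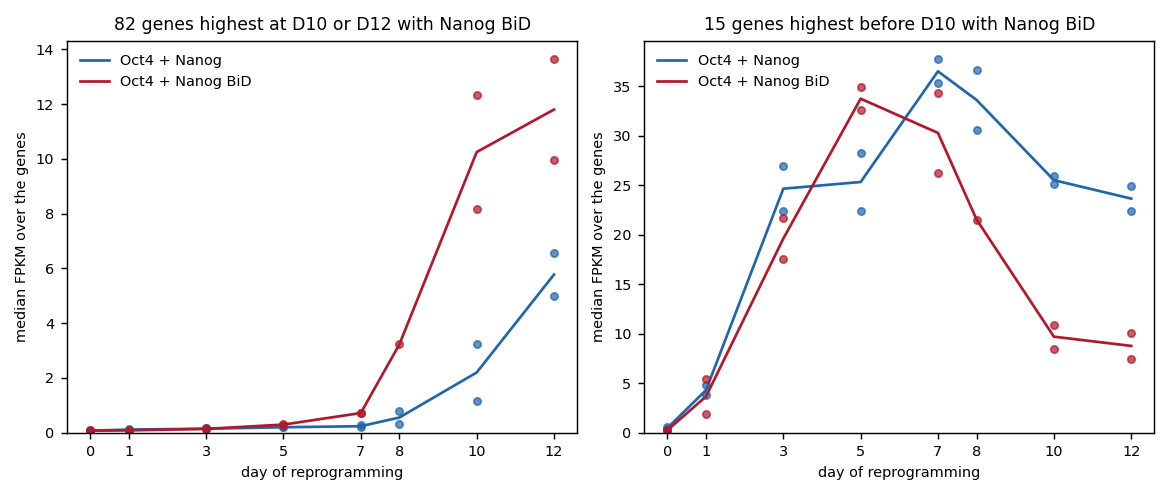
Median FPKM over 82 genes (left) and 15 genes (right) by day, for Oct4 with NanogWT (blue) and with NanogBiD (red); each point is 1 library and lines join the means of a day. In the left panel NanogBiD lies above NanogWT from D5 on, and in the right panel it lies below from D7 on.

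Transcription factors were the largest class, 25 of the 97 genes. Insm1, a zinc finger factor of neural and endocrine progenitors, stood apart, since it came early with either Nanog. With NanogBiD it was at 0.24 and 0.04 FPKM at D0, 55.8 and 60.5 at D5 and 54.4 and 52.2 at D12, and with NanogWT at 0.54 and 0.04, 14.7 and 16.2, and 38.4 and 22.3. The values of the combinations did not overlap at D5. Most others were near 0 up to D7 and high from D8. Scrt2, a repressor of the Snail family found in postmitotic neurons, was at 0.28 and 0.11 FPKM at D7, 4.46 at D8, 31.4 and 42.1 at D10 and 48.5 and 55.0 at D12 with NanogBiD. With NanogWT its level was 0.04 and 0 FPKM on D7, then 0.01 and 0.44, 1.76 and 6.51, and finally 29.8 and 19.0 on D12, below every NanogBiD value of the same day from D8 on.

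Among the helix-loop-helix factors, Nhlh2 was listed at 0 in every library of D0 to D5 and reached 38.6 and 50.9 FPKM with NanogBiD and 16.1 and 11.2 with NanogWT at D12. Hes5, the Notch effector, was highest at D10 with NanogBiD, at 44.3 and 70.1 FPKM, and stood at 23.7 and 21.5 at D12. With NanogWT Hes5 was at 2.45 and 11.6 FPKM at D10 and 16.9 and 13.6 at D12. Neurog1 and Olig3, which specify neuronal subtypes, had the same order of days with NanogBiD. Neurog1 was at 11.8 FPKM at D8, 14.6 and 21.8 at D10 and 7.24 and 9.55 at D12, and Olig3 at 10.6, at 11.5 and 16.9, and at 8.07 and 7.76. With NanogWT neither exceeded 3.72 FPKM in any library.

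Homeodomain, paired and POU factors differed in their timing. With NanogBiD the onset was D5 for Pax6, D8 for Msx3, Pax3 and Pou3f2 and D10 for Lhx5 and Gsx2, and the highest mean was at D10 for Pax3, Pax6 and Pou3f2 and at D12 for the other 3. With NanogBiD at D12 the means of 2 libraries were 29 FPKM for Msx3, 17.0 for Pax3, 15.4 for Lhx5, 8.64 for Gsx2 and 7.06 for Pax6, against 14.6, 7.13, 3.59, 3.52 and 2.13 with NanogWT, with no overlap for any of them. Pou3f2, of the POU family, was at 15.6 and 22.5 FPKM against 7.66 and 5.63. Rhox6, a homeobox gene of the X-linked reproductive cluster, was the most unequal gene. It was at 21.5 and 5.95 FPKM at D10 and 19.5 and 9.71 at D12 with NanogBiD, and at 0.23 and 0.39 and at 0 and 0.91 with NanogWT. Dach1, a cofactor of eye and brain development, took a course of its own with NanogBiD, at 6.97 and 9.34 FPKM at D0, 1.53 and 1.73 at D5 and 10.7 and 16.6 at D10.

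**Figure D3:**
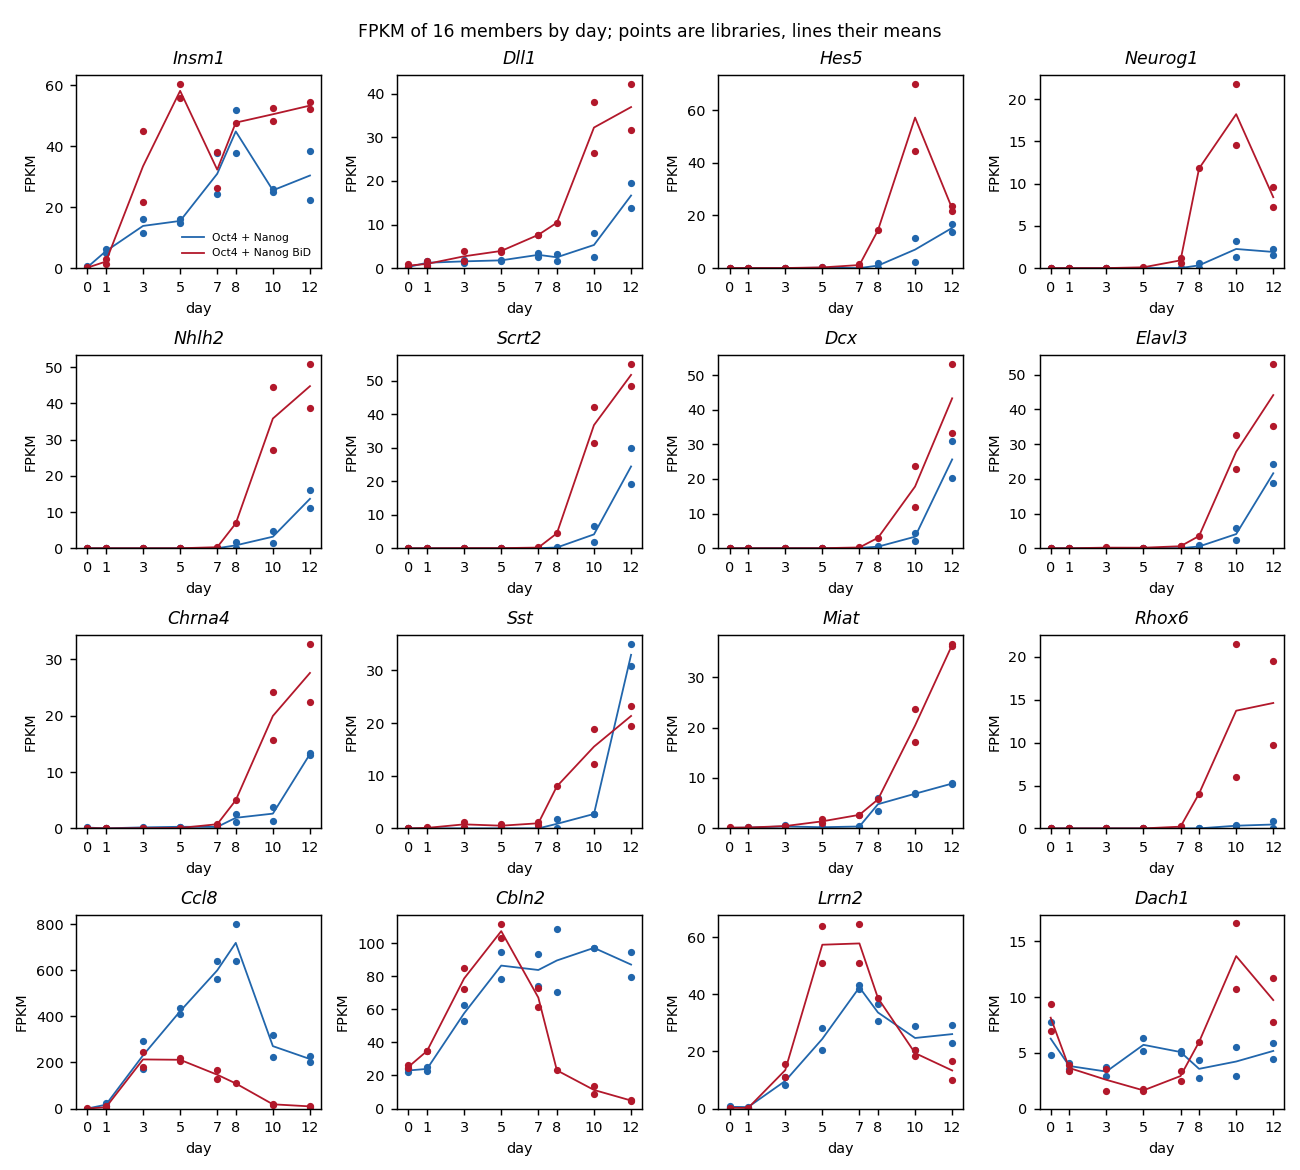
FPKM of 16 members by day for Oct4 with NanogWT (blue) and Oct4 with NanogBiD (red); points are libraries and lines join the means. Most neural genes leave the axis at D8 with NanogBiD, while Ccl8, Cbln2 and Lrrn2 are below NanogWT at D12 and Sst is also below it there.

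Signals and their receptors were mixed. The Notch ligand Dll1 was at 0.85 and 0.29 FPKM at D0, 7.61 and 7.66 at D7 and 31.6 and 42.3 at D12 with NanogBiD, and at 0.23 and 0.29, 2.63 and 3.46, and 19.5 and 13.8 with NanogWT. Hes5 was at 0.62 and 1.69 FPKM at D7 with NanogBiD and listed at 0 with NanogWT on that day. Sst, which encodes the peptide somatostatin, had the reverse order of combinations at D12, 23.3 and 19.4 FPKM with NanogBiD against 30.9 and 35.0 with NanogWT. At D10 the order was that of the other neural genes, 12.1 and 18.9 against 2.67 and 2.81. The nicotinic receptor subunit gene Chrna4 was at 22.5 and 32.7 FPKM with NanogBiD and 13.4 and 13.1 with NanogWT at D12. Cacng4, an auxiliary subunit of AMPA receptors, was at means of 32.0 and 23.9 FPKM, whose libraries overlapped.

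Products of young neurons came next. Dcx, a microtubule protein of migrating neurons, was at 0.17 and 0.28 FPKM on D7 with NanogBiD, at 11.9 and 23.8 on D10 and at 33.4 and 53.2 on D12. With NanogWT it was at 0.08 and 0.06, 2.21 and 4.46, and 20.3 and 31, so that the D12 values of the combinations came close without overlapping. Elavl3, a neuronal RNA-binding protein, was at 35.1 and 53.1 FPKM at D12 with NanogBiD and 24.3 and 18.9 with NanogWT. All 3 neuronal RNA-binding genes, Elavl3, Elavl4 and Celf3, peaked at D12 with both combinations. Elavl4 was already on early, with NanogBiD means of 5.32 FPKM at D0, 10.1 at D3 and 3.60 at D7. With NanogWT its means on those days were 1.40, 4.13 and 1.40. Miat, a long noncoding RNA of nervous tissue, was at 36.2 and 36.6 FPKM with NanogBiD and 8.78 and 9.01 with NanogWT at D12. Axon guidance genes included the netrin receptors Dcc and Unc5a and the Slit and Robo genes Slit1 and Robo3, with NanogBiD means at D12 of 21.4, 8.49, 8.86 and 10.2 FPKM against 15.4, 1.19, 3.26 and 3.26 with NanogWT, where the libraries overlapped for Dcc only. Unc5a had its highest mean at D10 with both combinations.

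The genes that peaked early were led by Ccl8, which encodes a chemokine. It was at 246 and 180 FPKM at D3, 126 and 167 at D7 and 9.99 and 8.75 at D12 with NanogBiD, and at 292 and 170, 560 and 639, and 200 and 230 with NanogWT. Ccl8 is on none of the lists. The 16 macrophage and leukocyte markers summed to 9.71 to 14.9 FPKM at D7 and 18.4 to 21.9 at D12 with NanogBiD, and to 9.54 to 24.6 and 14.4 to 34.5 with NanogWT. Of 17 interferon-stimulated genes, 15 rose and none fell from D0 to D7 with NanogWT (median log2 difference 3.57, limma). With NanogBiD 10 rose and 1 fell over the same days (median 1.85). Over all genes 12% rose and 5.69% fell with NanogWT, and 12.7% and 6.15% with NanogBiD. At D7, 14 of the 17 were lower and 1 higher with NanogBiD (median -2.20), against 4.65% and 5.79% of all genes. The part of the interferon-stimulated genes in the values of Ccl8 was not tested. Cbln2, a secreted synapse organiser, was at 26.2 and 24.2 FPKM at D0 with NanogBiD and 24.2 and 21.9 with NanogWT although it was listed at 0 in MEF and mES. At D12 it was at 4.33 and 5.36 FPKM against 79.4 and 94.8. Cldn1, a tight junction protein, had means at D12 of 5.34 FPKM with NanogBiD and 43.6 with NanogWT, and Spock1, a matrix proteoglycan, 7.86 and 50.9. Of these 15 genes, which were sorted by NanogBiD values that include D12, 8 were lower with NanogBiD at D12 without overlap, 2 were higher and 5 overlapped. Over all genes 29.2% were lower and 45.9% higher.

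The first test asked how much of the set had moved before the days used to choose it. Between D0 and D7 with NanogBiD, 36 of the 97 genes rose and 2 fell (limma on log2(FPKM + 1), Benjamini-Hochberg adjusted p under 0.05 and at least 2-fold), against 12.7% and 6.15% of the 16842 genes tested. Over those genes the median log2 difference was 0.24. Members were chosen under 1 FPKM in MEF, the cells that were infected, and their median was 0.120 FPKM at D0 with NanogBiD. Few had room to fall, and the genes tested include many expressed in MEF, so those shares are not a like reference. Ccl8 rose by 7.04 on the log2 scale (SE 0.40, adjusted p = 6.58e-11), Lrrn2 by 5.52 (SE 0.24, adjusted p = 2.13e-12) and Rtn4rl2 by 5.14 (SE 0.36, adjusted p = 1.06e-09). Spock1 rose by 4.87 and Insm1 by 4.85.

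Among the neural genes of the 82, Dll1 rose by 2.48 (SE 0.39), Neurog2 by 1.34, Chrna3 by 1.30 and Pax6 by 1.16 on the log2 scale over the same days, and the adjusted p of limma was 0.00116 for Pax6, whose difference fell under the fold limit, at 0.98, without NanogBiD replicate 1 of D7. Hes5, at 1.02 (SE 0.45, adjusted p = 0.0716), Neurog1, at 0.92, and Nhlh2, at 0.36, were not called. By class, 9 of 11 signalling and matrix genes, 6 of 13 synaptic genes, 5 of 25 transcription factors and none of the 3 RNA-binding genes rose. Dach1 fell by 1.22 and Dcc fell by 1.09, and Dcc lost its call without either library of D0 (adjusted p = 0.056 and 0.0734) or without replicate 1 of D7 (0.118). Over the neural list as a whole, 11 of 26 tested genes rose and 1 fell. Of its 15 genes that are not members 9 rose, among them the progenitor factor Sox1 by 4.02 and the neuronal tubulin Tubb3 by 4.32, while of its 11 members 2 rose and Dcx (0.29) was not called. With NanogWT 7 of these 15 non-members rose over the same days, Sox1 by 5.17 and Tubb3 by 1.23. The non-members were named after their values were seen.

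The second test compared the combinations before D8. At D7, 17 of the 97 genes were higher with NanogBiD and 3 were lower, against 5.79% and 4.65% of all genes tested by limma. Members were chosen by high NanogBiD values at D10 and D12, with no condition on NanogWT. A lean towards NanogBiD before D8 may follow from that choice, so those shares are not a like reference. The same holds for the change from D0 to D7 and for D5 below. Col26a1, a collagen, was at 3.85 and 3.23 FPKM with NanogBiD and 0.05 and 0.12 with NanogWT, a log2 difference of 2.07 (SE 0.16, adjusted p = 1.97e-08). Sparcl1, a matrix protein of the SPARC family, differed by 1.82, H2bu2, a histone gene, by 1.80, Cntn2, an axonal adhesion molecule, by 1.60 and Miat by 1.42. Dll1 (adjusted p = 0.0429 by limma), Neurog2 (1.05) and Chrna3 (1.22) were also higher. Dll1 lost its call when any 1 of the 4 libraries was left out (adjusted p = 0.0799 to 0.206 by limma). Neurog2 and Chrna3 lost theirs without NanogBiD replicate 2 (0.83 and 1.14) or NanogWT replicate 1. Ccl8 (-2.03), Enpp3 (-1.36) and Rtn4rl2 (-1.21) were lower with NanogBiD. Rtn4rl2 lost its call without either of those libraries as well (-0.84 and -1.05), and Enpp3 without them (-1.16 and -1.29) or NanogWT replicate 2 (-1.43). On the neural list, 4 of 26 tested genes were higher with NanogBiD at D7 and 4 were lower. The higher ones were the member Neurog2 and the non-members Stmn2 (3.16), Tubb3 (2.35) and Foxb1 (1.61). The lower ones were Nefm (-3.47), Pou3f1 (-3.20), Nefl (-2.51) and Sox1 (-1.17), none of them members.

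The change from D0 to D7 itself differed between the combinations for 12 of the 97 genes (interaction term of the same limma fit). It was larger with NanogBiD for 8 (5.2% of all genes were) and smaller for 4 (4.88%).

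At D5, 7 genes were higher with NanogBiD (3.2% of all genes were) and 2 lower (3.28%). Cntn2 was at 20.3 and 30.1 FPKM against 4.32 and 5.86, a log2 difference of 2.09 (SE 0.28, adjusted p = 2.39e-05 by limma). The others higher were Apba2, a synaptic adaptor protein, by 1.98, Insm1 by 1.84, Nsg2, a neuronal endosome protein, by 1.25, Lrrn2 by 1.21, Sparcl1 by 1.01 and Neurog2, and Dach1 (-1.35) and Enpp3 (-1.27) were lower. Without NanogWT replicate 1 Lrrn2 (0.99) and Enpp3 (-0.92) were not called, nor was Enpp3 without either NanogBiD library (-1.46 and -1.07). On the neural list, 4 of 26 tested genes were higher with NanogBiD at D5 and 3 were lower. The higher ones were the member Neurog2 and the non-members Tubb3 (3.56), Stmn2 (3.23) and Nkx6-1 (1.47). The lower ones were the non-members Nefm (-3.06), Nefl (-2.26) and Pou3f1 (-1.82). At this day most of the set was below 1 FPKM with both combinations, where the log2(FPKM + 1) scale understates a change.

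The third test asked whether the same genes rose in the NanogWT cultures, in libraries whose values played no part in the choice. The D0 baseline was still tied to the choice through MEF, with a median of 0.0960 FPKM over the 97 genes. Few genes had room to fall, and the shares over all genes are not a like reference. Between D0 and D12 with NanogWT, 89 of the 97 genes rose and none fell, against 12.2% and 3.95% of all genes, and the median log2 difference was 2.47 over the 97 genes and 0.19 over all genes. Ccl8 rose by 7.75 (SE 0.40, adjusted p = 2.45e-11), Spock1 by 5.48, Sst by 5.08, Rtn4rl2 by 4.81, Dcx by 4.67, Insm1 by 4.58, Hes5 by 4.02 and Nhlh2 by 3.85. At D12, 91 genes were at or over 1 FPKM in both NanogWT libraries, compared with 33.3% of the 2502 genes under the limit in MEF and mES that passed the filter. Rhox6 was not called (0.47). The NanogWT libraries of D8 to D12 were deeper than those of D0, and the part of depth in the result was not tested. The cultures also received Oct4 and, after 7 days, another medium, and no time-course culture lacked Nanog. The parts of Nanog, Oct4, medium and time in the rise cannot be told apart.

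The timing with NanogWT was read from its own steps. Between D0 and D7, 26 genes rose and none fell, against 12% and 5.69% of all genes. The genes that rose comprised all 15 early genes and 11 of the 82 others, and the limit given above for D0 values holds here too. Between D7 and D8 only Miat (2.04), Chrna4 (1.14) and Draxin (1.04), an axon guidance protein, rose and none fell, against 4% and 3.06% of all genes. Chrna4 was not called without replicate 2 of D8 (0.75), nor Draxin without replicate 1 of D7 (0.99), and 12 of 100 symbols rose without replicate 1 of D8, while 4 rose and 2 fell without replicate 1 of D7. Between D10 and D12, 42 genes rose and none fell, against 1.54% and 0.0356% of all genes, and the median log2 difference was 1.16 over the 82 genes and -0.11 over the 15. Sst rose by 3.18 (SE 0.33, adjusted p = 6.28e-06 by limma), H2bu2 by 2.85, Cdk5r1, an activator of the neuronal kinase Cdk5, by 2.69, Dcx by 2.64, Nsg2 by 2.55 and Scrt2 by 2.45. This last count rests on the spread shared by all groups: in a fit to the compared groups alone 8 of 100 symbols rose. The NanogWT libraries of D10 also differed from each other, with medians of 1.17 and 3.22 FPKM over the 82 genes, and without replicate 1 of D10 19 symbols rose and 2 fell, against 54 that rose without replicate 2. Without replicate 1 of D12 29 rose.

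At D10 and D12 the combinations are set side by side only, since the NanogBiD values chose the genes. At D10, 86 of the 97 genes were higher with NanogBiD without overlap of the libraries, 9 were lower and 2 overlapped, while 45.2% of all genes were higher and 35.1% lower. At D12 the numbers were 75 higher, 9 lower and 13 overlapping, with 45.9% and 29.2% of all genes. For the 82 late genes the median ratio of NanogBiD to NanogWT was 5.46 at D10 and 2.02 at D12. Ratios at D12 ran from 0.0436 for Ccl8 and 0.0556 for Cbln2 to 8.00 for Olig3, 10.1 for Chrnb4 and 32.3 for Rhox6. Transcription factors were higher with NanogBiD at D12 without overlap in 24 of 25 cases, signalling and matrix genes in 6 of 11.

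**Figure D4:**
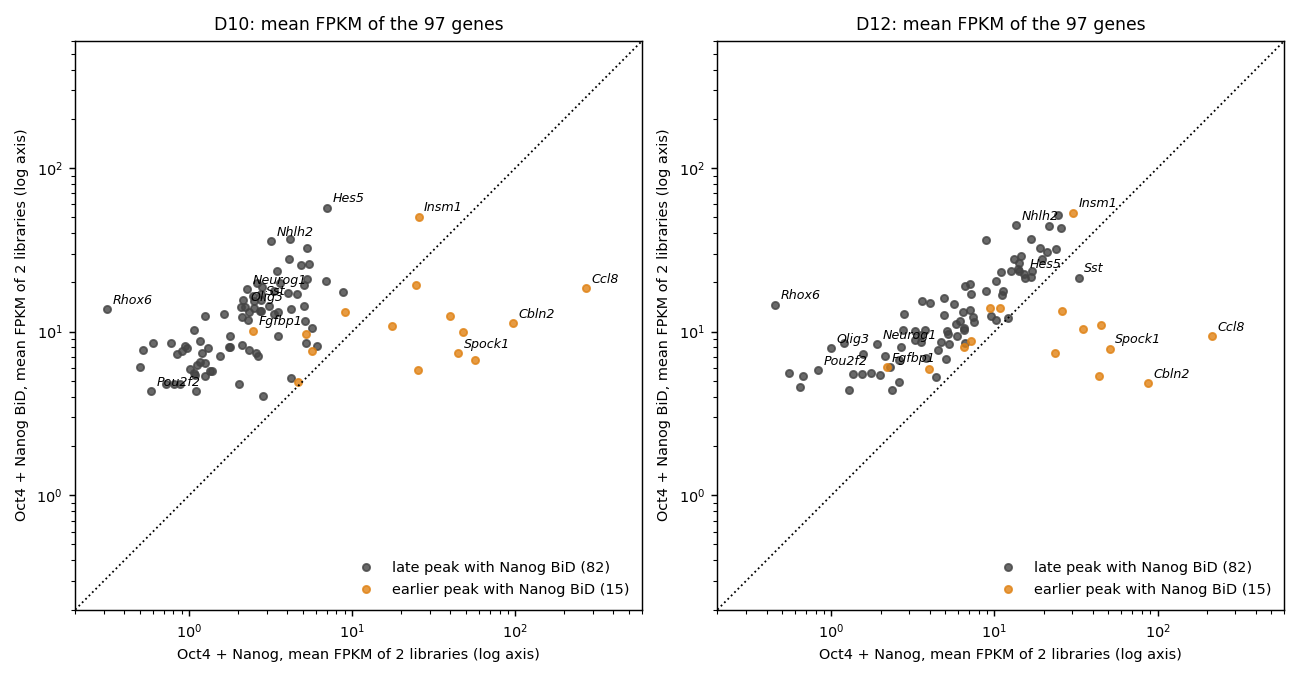
Mean FPKM of the 97 genes at D10 and D12 with Oct4 and NanogBiD (vertical, log axis) against Oct4 and NanogWT (horizontal, log axis), each over 2 libraries; the dotted line marks equal levels. The dark points, genes that peaked late with NanogBiD, lie closer to the line at D12 than at D10, and 8 of the 15 orange points lie below it without overlap of the libraries at D12.

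Some members are neighbours, whose values are not separate evidence. Chrna3 and Chrnb4, subunits of ganglionic nicotinic receptors, lie 1.59 kb apart on chromosome 9 of GRCm38.p6 (55010117 to 55026562 and 55028154 to 55048953). Chrna3 was at 8.90 and 16.8 FPKM with NanogBiD and 2.08 and 3.53 with NanogWT at D12, and Chrnb4 at 4.08 and 7.05 and at 0.51 and 0.59. Pcdh8 overlaps Gm9748 on chromosome 14, and Pou2f2 overlaps D930028M14Rik on chromosome 7. In all, 28 symbols overlap another gene of the table, and since the authors' use of strand is not stated the reads of such pairs could have been shared. H2bu2, Serpina3m and Rhox6 have close relatives in the genome, which makes their values uncertain in the same way.

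Most of the set was below 1 FPKM in established iPSC. In the transcript table, summed by gene symbol, 96 of the 97 genes were found (all but Gm9748), and 67 of them (69.8%) were under 1 FPKM in all 12 iPSC samples. The same was true of 84.4% of the 2412 genes under the limit in MEF and mES that passed the time-course filter and were in both tables, and of 96.1% of all 21575 in both tables. The median member was at 0.0724 to 0.184 FPKM in the iPSC samples, close to the 0.187 of mES, and 3 to 10 genes reached 1 FPKM in a NanogBiD iPSC sample and 6 to 12 in a NanogWT one. The highest iPSC value was 0.0237 FPKM for Dcx, 0.0321 for Nhlh2, 0.0755 for Hes5 and 0.445 for Scrt2, and Sst was listed at 0 in all 12 samples.

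Only Serpina3m, Lrrn2 and Fgfbp1 were at or over 1 FPKM in all 12, and each had peaked early with NanogBiD. Serpina3m, a serine protease inhibitor, ranged from 2.53 to 9.84 FPKM with a median of 8.21, Lrrn2, a leucine-rich repeat membrane protein, from 2.89 to 7.85 with a median of 5.80, and Fgfbp1, an FGF carrier protein, from 2.21 to 30.6 with a median of 4.51. In mES of the same table they were at 0.978, 0.415 and 0.703. A further 26 genes were at or over 1 FPKM in 1 to 11 samples, 12 of them in 1. Tmem35 reached it in 7 (0.302 to 7.13 FPKM), Lrrc4b in 6 (0 to 5.66), Rtn1 in 5 and Plch1, Nsg2 and Rhox6 in 4 each, and Rhox6 was highest in a NanogWT sample at 6.63. No member of the 17 that passed the filter differed between NanogBiD and NanogWT iPSC by limma, with 0% of 12456 genes called. At an unadjusted p under 0.05 there were 201 genes and 0 members. The tables differ in level for some genes: in the transcript table Rtn1 was at 1.71, Phf21b at 1.08 and Enpp3 at 1.22 FPKM in mES, and Enpp3 and Kif21a were at 1.31 and 1.02 in a MEF sample, although all 4 were under 1 FPKM in the gene table.

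**Figure D5:**
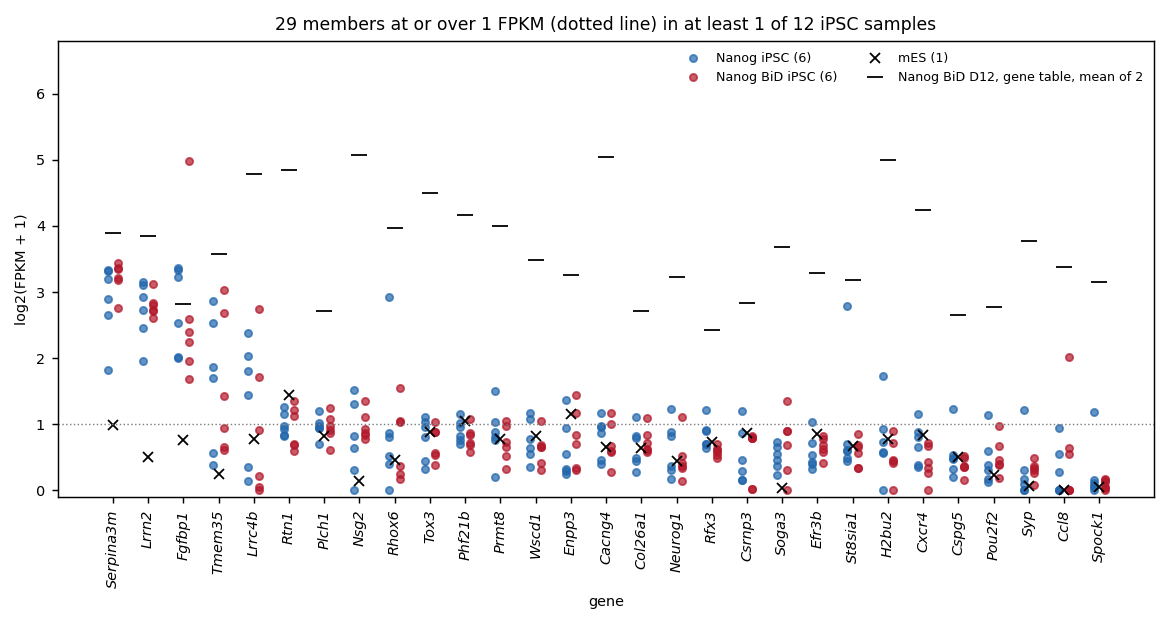
log2(FPKM + 1) of the 29 genes at or over 1 FPKM (dotted line) in at least 1 of 12 iPSC samples; dots are iPSC samples (6 per combination), crosses mES and dashes the NanogBiD mean at D12 from the gene table. Serpina3m, Lrrn2 and Fgfbp1 are above the line in all 12 samples, and most other dots lie below it.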

How the data were processed

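RNA-seq libraries were made from total RNA with an mRNA-seq kit per the labels, while the study's methods name another RNA-seq kit. The authors trimmed reads with Trim Galore 0.6.4, aligned them to mm10 with HISAT2 2.2.1 and quantified them with StringTie 2.2.1, per the labels and the study's methods. The annotation and use of strand are not given in the sources used here. The deposited values are FPKM, in a gene table (time course, MEF, mES) and a transcript table (iPSC, MEF, mES), with no fold or p columns. Nothing was pooled.

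FPKM are not counts, so limma 3.58.1 (R 4.3.3) was run on log2(FPKM + 1), with a mean for each of 16 combinations and days, an intensity trend and genes at or over 1 FPKM in at least 2 time-course libraries (16842). All 100 members passed, as the choice ensured, since the filter counted the 4 choosing libraries. With the filter over the other time-course libraries alone, 97 of the 100 symbols passed. The numbers of symbols called were then the same in each time-course contrast. In fits to the compared groups alone, 48 symbols passed at D7 and 43 at D5 for NanogBiD against NanogWT. iPSC were fitted with line as covariate (12456 genes, 17 members). A call needed a two-sided Benjamini-Hochberg value below 0.05 over all features tested and a difference of 1 or more on the log2 scale. NanogBiD D8 has 1 library and enters the fit with the shared spread. The fit was first tested on simulated data. Depth is known only as ratios, so no counting interval is given. Python 3.11.15 with pandas 2.3.3, numpy 2.4.6 and matplotlib 3.10.9 was used for the rest.

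Named genes were the 20 highest by the choosing value, members of a lineage list, the 5 largest called changes per contrast and direction, genes kept in iPSC, the 5 highest and lowest at NanogWT D12, neighbours, families, DNA-binding and signalling proteins, genes at the limit and those with onset by D5; others named were chosen after their values were seen, as were the role classes and the interaction, D7 against D0 and D12 against D10 contrasts with NanogWT. The members and lists were chosen with earlier results of these data known. Alternatives were another pseudocount, no filter, other scalings, a fit to the compared groups alone, a replicate block and each library left out. The values of 1 member are not reported here.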

Additional observations from a re-analysis of the deposited data

Results flagged for a closer look

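The change from D0 to D7 differed between the combinations (interaction term of the limma fit, adjusted p under 0.05 and at least 2-fold) for 12 of the 97 genes, 8 with a larger change under NanogBiD and 4 with a smaller one, against 5.2% and 4.88% of all genes tested. Since members were chosen by high NanogBiD values, these shares are not a like reference. The differences in log2 change were 2.70 for H2bu2, 2.04 for Col26a1, 1.76 for Sparcl1, 1.39 for Cntn2, 1.32 for Miat, 1.27 for Plch1, 1.26 for Nsg2 and 1.26 for Draxin. They were -1.23 for Tmem35, -1.53 for LOC108168731, -2.19 for Ccl8 and -2.22 for Gm41875. At D0 Gm41875 was at 17 and 13 FPKM with NanogBiD and 3.96 and 3.35 with NanogWT, and at D7 at 8.25 and 7.35 against 12.8 and 9.34, so that the order of the combinations turned. H2bu2 was at 2.49 and 0.27 FPKM in the NanogWT libraries of D0, against 0.27 and 0 with NanogBiD. Leaving out 1 library ended the call for Cntn2, Ccl8, LOC108168731 and Tmem35. The lowest differences then were 1.09 for Cntn2 and -1.99 for Ccl8 without NanogBiD replicate 1 of D7, -1.20 for LOC108168731 without NanogWT replicate 2 of D7 and -0.87 for Tmem35 without NanogWT replicate 2 of D0.

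Among the 6 NanogBiD iPSC samples Fgfbp1 had 1 sample far from the others, at 30.6 FPKM against 2.21 to 5.05, a gap of 0.90 of the whole range. That sample belongs to line iPSC1. The criterion it passed marks about 1 in 20 groups by chance. The gene was at or over 1 FPKM in all 12 samples with or without it.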

How the results depend on the processing

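Counts here are over the 100 symbols. A pseudocount of 0.1 moved the number called from 41 to 69 for NanogBiD D7 against D0, from 21 to 36 for NanogBiD against NanogWT at D7, from 9 to 20 at D5, from 3 to 15 for NanogWT D8 against D7, from 43 to 25 for D12 against D10 and from 28 to 47 for D7 against D0. Rescaling to a common total gave 14 at D5 and 12 for D8 against D7, and no fold limit gave 17 and 14. The common total exceeded that of every library while the pseudocount stayed at 1, so rescaling also made the pseudocount smaller in FPKM terms. A fit to the compared groups alone gave 8 for D12 against D10. Leaving out 1 library gave 3 to 12 for D8 against D7 and 21 to 54 for D12 against D10. The cause was not tested. For NanogWT D12 against D0, 92 symbols were called, and leaving out 1 library gave 89 to 91. Of the choices of members, 56 of 100 were shared with a limit of 0.5 FPKM and 88 when ranked by the mean. After rescaling to the larger common total 50 were shared, with the limit kept at 1, which is a stricter limit in FPKM terms. Quantile normalization moved the median log2 difference of all genes from 0.24 to -0.01 for NanogBiD D7 against D0 and from 0.19 to -0.05 for NanogWT D12 against D0. When replicate number entered as a block, 41, 21, 9, 92, 4 and 45 symbols were called in NanogBiD D7 against D0, NanogBiD against NanogWT at D7 and D5, and NanogWT D12 against D0, D8 against D7 and D12 against D10. Deviations of same-numbered libraries correlated at -0.0429 to 0.421 over these contrasts, each with 2 pairs, which does not settle whether the numbers pair the libraries. Over 61 pairs of a named gene and a contrast, 719 recomputed values kept their call, 47 lost it and none changed sign. Depth is known as a ratio, so low FPKM cannot be given a counting interval.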

Other observations

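Of the 100 symbols, 56 were chosen again when the limit in MEF and mES was set at 0.5 FPKM. When all libraries were rescaled to a common total 50 were (20153 genes under the limit, against 22165 before rescaling). The limit was kept at 1 on the rescaled values, which are larger than FPKM, so the limit became stricter as well. The effects of the limit and of the rescaling cannot be told apart here. Insm1, Scrt2, Nhlh2, Hes5, Pax3, Dcx, Sst and Olig3 were chosen under both settings. Among the genes replaced under both were Dll1, Elavl3, Msx3, Lhx5, Gsx2, Lrrn2, Serpina3m and Fgfbp1, each with an mES value between 0.5 and 1 FPKM or a MEF value in that range.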
